A study of Homo sapiens with 48 samples.

Results

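The genes described here encode the class I phosphoinositide 3-kinase (PI3K) machinery of B cells and the enzymes on either side of it. They are the catalytic subunits PIK3CA, PIK3CB, PIK3CD and PIK3CG, the regulatory subunit PIK3R1, the adaptor PIK3AP1, the phosphatase INPP5D and the kinases AKT1 and AKT2. They were taken by gene symbol from the table of read counts. All 9 were found among its 25066 genes, and all 9 were among the 13881 genes with enough reads to test.

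PI3K enzymes phosphorylate a lipid of the plasma membrane to PIP3, which recruits the kinase AKT so that it can be activated. A catalytic subunit (p110 alpha, beta, delta or gamma, from PIK3CA, PIK3CB, PIK3CD and PIK3CG) works bound to a regulatory subunit, of which PIK3R1 makes p85 alpha. In B cells the B cell receptor recruits the enzyme, in part through the adaptor BCAP (PIK3AP1), and p110 delta is the form best known for B cell receptor signalling. SHIP1, the product of INPP5D, removes the 5-phosphate of PIP3. AKT in turn phosphorylates FOXO transcription factors, which keeps them out of the nucleus. The substrate of SHIP1 is the lipid and not the kinase, so INPP5D is a phosphatase of the pathway's lipid product.

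RNA was measured in TMD8 and HBL1, cell lines of the activated B cell type of diffuse large B cell lymphoma, and the cells of every group, controls included, were engineered to carry Cas9. Each line received the vehicle DMSO, 5 µM NGI-1 (an inhibitor of oligosaccharyltransferase, which attaches N-linked glycans), 50 nM acalabrutinib (an inhibitor of the B cell receptor kinase BTK) or 20 nM copanlisib (a PI3K inhibitor). Cells were collected at 3, 6 or 24 h, with 2 libraries in each of the 24 groups and 48 libraries in all. Whether the 2 libraries of a group are separate cultures is not said in the labels. A p-value here therefore sets a difference against the variation of these libraries, and that variation could be technical only. Each line stands for 1 tumour.

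The libraries held 7165377 to 11999050 counted reads, and the closest library of each of the 48 was one of the same line and time. The summed level of 7 B cell markers was 2720 to 4510 CPM (reads scaled to the size of the library) in TMD8 and 2320 to 3790 CPM in HBL1. The sum of 7 T and NK cell markers was 0 to 2.64 CPM in TMD8 and 0.0963 to 0.841 CPM in HBL1, with 1 and 2 of these genes at 0 in every library. Markers of the activated B cell type summed to at least 1320 CPM in every library of either line. Germinal centre markers summed to 71.5 to 193 CPM in TMD8 and 2.43 to 6.72 CPM in HBL1. In bulk RNA fewer cells of a type and less RNA per cell cannot be told apart.

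Because AKT restrains FOXO factors, the FOXO binding core GTAAACA was searched on both strands (as GTAAACA or TGTTTAC) in the 250 bases before each annotated start. Promoter windows came from RefSeq (build GRCh38.p14), with 17 windows for the 9 genes. The core was present in 1046 of 35116 windows of the same length, or 2.98%. Among the 17 windows, 1 held a match, upstream of a start of PIK3CA. The stretch below covers it (GRCh38.p14, chr3:179148197-179148226, plus strand), with the match in capitals, which is the core read on the minus strand. In GENCODE 29 the match lies inside an exon of 1 annotated PIK3CA transcript. A match of letters is a description of the sequence and not a measured binding site.
PIK3CA upstream stretch: agttcgttgttTGTTTACacgatgtgagcg

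Under DMSO the delta subunit was the main class I catalytic transcript in both lines, and the lines differed most in INPP5D, PIK3CA and PIK3R1. Levels between genes were compared per kilobase of exon (CPM per kb, with exon lengths from GENCODE 29). In TMD8 the median of the 6 DMSO libraries was highest for PIK3CD, at 65.5 CPM per kb, followed by PIK3AP1 at 52.9, AKT2 at 43.5, INPP5D at 34.1, AKT1 at 19.2 and PIK3R1 at 14.9. PIK3CB, PIK3CG and PIK3CA were lowest in TMD8, at 4.83, 4.47 and 2.56 CPM per kb. PIK3CB and PIK3CG overlapped there, with ranges of 3.69 to 6.19 and 2.06 to 5.10. In HBL1 the order began with INPP5D at 124.7 CPM per kb, then PIK3AP1 at 81.4, PIK3CD at 39.2, AKT2 at 26.3 and AKT1 at 10.6. PIK3CB, PIK3CA, PIK3CG and PIK3R1 followed at 7.75, 7.12, 5.79 and 5.62 CPM per kb. Neighbours in this last stretch had overlapping ranges, while PIK3CA (6.05 to 8.82) lay above PIK3R1 (4.43 to 5.99). The last 2 changed places when the longest transcript was used as the length.

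**Figure D1:**
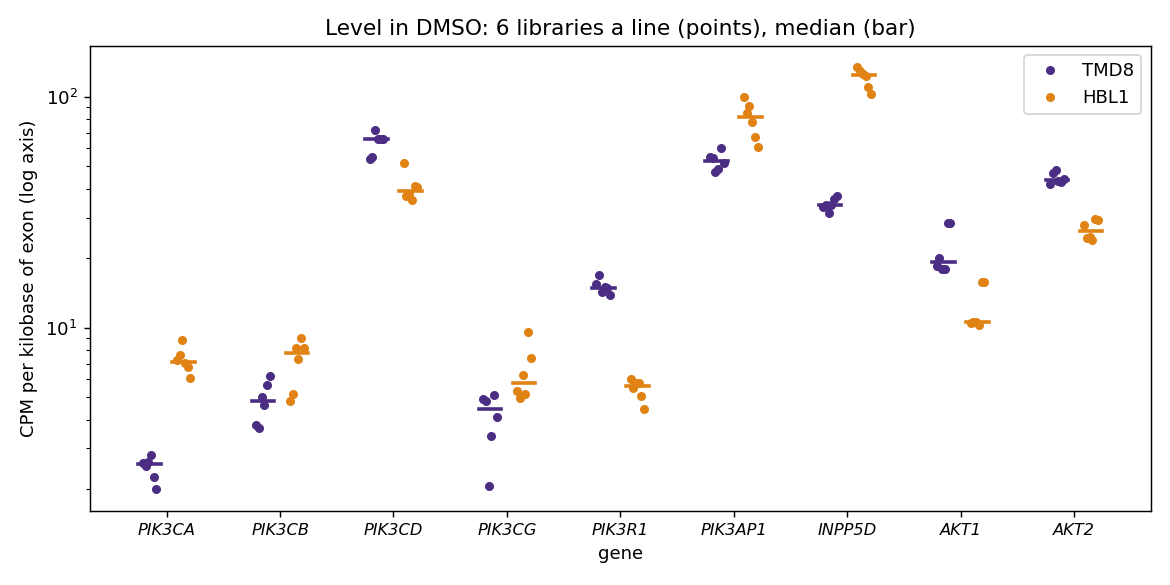
Level of each gene in the 6 DMSO libraries of each line (points) and their median (bar), in CPM per kilobase of exon on a log axis. PIK3CD stands above the other catalytic subunits in both lines, and INPP5D is the highest of the genes in HBL1 at a median of 124.7.

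Of the summed per-kilobase level of the 4 catalytic subunits, PIK3CD made up 82.6 to 88.1% in the DMSO libraries of TMD8 (median 83.8%) and 61.8 to 74.7% in those of HBL1 (median 64.9%). The ranges of the lines did not overlap. PIK3CA had a median share of 3.45% in TMD8 and 11.6% in HBL1, and PIK3CB one of 6.11% and 13.2%. The share of PIK3CG was 2.53 to 7.58% in TMD8 and 7.73 to 14.4% in HBL1.

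Direct tests of TMD8 against HBL1 in DMSO called 7 of the 9 genes at 3 h (background over all genes tested 65.2%), 9 of 9 at 6 h (65.8%) and 8 of 9 at 24 h (66%). The lines thus differed in most genes, and the count for these genes is to be read against that background. INPP5D was 710 and 679 CPM in HBL1 and 176 and 180 CPM in TMD8 at 3 h, a log2 difference (TMD8 minus HBL1) of -1.96 ± 0.08 (SE, edgeR adjusted p = 3.1e-24). At 24 h the difference for INPP5D was -1.55 ± 0.08 (edgeR adjusted p = 5.3e-21), or 2.92-fold lower in TMD8. PIK3CA was also lower in TMD8 at every time, by log2 differences of -1.54, -1.54 and -1.60, with 23.9 and 23.1 CPM against 66.5 and 70.2 CPM at 3 h. PIK3R1 went the other way, with 120 and 132 CPM in TMD8 against 46.5 and 42.6 CPM in HBL1 at 3 h, and was 2.82-, 2.54- and 3.02-fold higher in TMD8 at 3, 6 and 24 h. No TMD8 library of these 3 genes fell within the HBL1 range.

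AKT1 and AKT2 were higher in TMD8 at all 3 times, by log2 differences of 0.87, 0.78 and 0.85 for AKT1 and 0.76, 0.91 and 0.56 for AKT2. PIK3CB was lower in TMD8 at every time (-0.41, -0.69 and -0.54). Its 3 h call was lost without TMD8 DMSO replicate 1 (edgeR adjusted p = 0.05), TMD8 DMSO replicate 2 (0.065) or HBL1 DMSO replicate 2 (0.08). PIK3AP1 was lower in TMD8 at 3 h and 6 h (-0.76 and -0.82), while at 24 h the difference of -0.20 was not called (edgeR adjusted p = 0.079). That 24 h difference of PIK3AP1 was called without TMD8 DMSO replicate 1 (0.029). PIK3CG was lower in TMD8 at 6 h and 24 h (-1.08 and -0.89), and at 3 h, with 27.3 and 26.8 CPM against 29.4 and 27.3 CPM, it was not called. PIK3CD was higher in TMD8 at 6 h and 24 h (0.91 and 0.68), and its 3 h difference of 0.29 was not called (edgeR adjusted p = 0.066).

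The PIK3CD value at 3 h rested on libraries that differed within each HBL1 group. Replicate 1 and replicate 2 held 291.8 and 211.1 CPM in DMSO, 268.1 and 195.9 CPM with NGI-1, 264.2 and 183.6 CPM with acalabrutinib, and 332.1 and 217.3 CPM with copanlisib. Without HBL1 DMSO replicate 1 the PIK3CD difference between lines at 3 h was called (edgeR adjusted p = 0.0046). At 6 h and 24 h the replicates of PIK3CD in HBL1 lay closer, at 214 and 202 CPM and 233 and 230 CPM in DMSO.

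Time in culture alone moved some of these transcripts. Between 3 h and 24 h in DMSO, 2 of the 9 genes were called in TMD8 (background 32.8%) and 5 of 9 in HBL1 (background 40%). PIK3CB rose in both lines, from 22.8 and 22.1 to 33.9 and 37.1 CPM in TMD8 (log2 change 0.66 ± 0.15, edgeR adjusted p = 0.00051) and from 28.9 and 31.1 to 54.1 and 48.8 CPM in HBL1 (0.78 ± 0.14, edgeR adjusted p = 1.2e-05). AKT1 rose in both as well, by 0.57 ± 0.08 in TMD8 and 0.59 ± 0.08 in HBL1. PIK3CG rose in HBL1 by 0.73, while PIK3AP1 fell there by 0.53 and INPP5D fell by 0.30. The change of PIK3R1 in HBL1 was -0.27 and was not called (edgeR adjusted p = 0.054), but it was called with DESeq2 (0.024), RLE size factors (0.023), no filter (0.019), a stricter filter (0.014), without 24 h replicate 1 (0.039) and without 3 h replicate 2 (0.027). All comparisons with a compound below were therefore made within a time.

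Against DMSO most calls of these genes were at 24 h. In TMD8 at that time PIK3CA, PIK3CG, PIK3R1 and INPP5D rose with at least 1 compound and AKT1 fell. The delta and beta subunits and the adaptor PIK3AP1 were not called in the main fit. The delta subunit and PIK3AP1 were called there when the replicate number entered the fit, as given below. Calls at 24 h were fewer in HBL1, where the background was also lower, though with copanlisib only slightly (30.5 against 31.8%). The direct test of the difference between lines over all times, given below, called 1 of 81. The 3 compounds of a line and time were compared with the same 2 DMSO libraries, so their values are not independent of each other. At 24 h in TMD8, 5 of the 9 genes were called with NGI-1 (background 30.7%), 6 with acalabrutinib (31%) and 4 with copanlisib (31.8%). Of these, 4, 4 and 3 were higher, where 15.7, 15.5 and 15.8% of all genes tested were called higher, and 1, 2 and 1 were lower, where 14.9, 15.5 and 16% were. At 24 h in HBL1 the counts were 2 with NGI-1 (19.4%), 1 with acalabrutinib (19%) and 3 with copanlisib (30.5%), which were near or below the background. There 1, 1 and 2 were higher (7.95, 7.62 and 12.7% of all genes tested) and 1, 0 and 1 lower (11.4, 11.4 and 17.8%). Over all times and both lines, NGI-1 gave 8 calls in 54 tests, acalabrutinib 9 and copanlisib 11. The background of their single comparisons ran from 0.353 to 30.7%, from 0.245 to 31% and from 1.76 to 31.8%. These totals do not rank the compounds, since the background differed between them.

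Earlier time points held fewer calls. At 6 h in TMD8, 1 gene was called with NGI-1 (background 4.33%), 2 with acalabrutinib (4.64%) and 2 with copanlisib (14.6%), and in HBL1 copanlisib gave 1 call (9.53%). At 3 h copanlisib in TMD8 gave 1 call (1.76%). In the other 7 comparisons edgeR called none. At 3 h these were NGI-1 and acalabrutinib in TMD8 (background 0.771 and 0.389%) and NGI-1, acalabrutinib and copanlisib in HBL1 (0.353, 0.245 and 2.1%). Of their 45 tests, 2 reached p under 0.05 before adjustment, and DESeq2 called 0. At 6 h they were NGI-1 and acalabrutinib in HBL1 (1.13 and 5.65%). Of those 18 tests, 3 reached p under 0.05 before adjustment, and DESeq2 called 1, which was INPP5D with acalabrutinib.

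**Figure D2:**
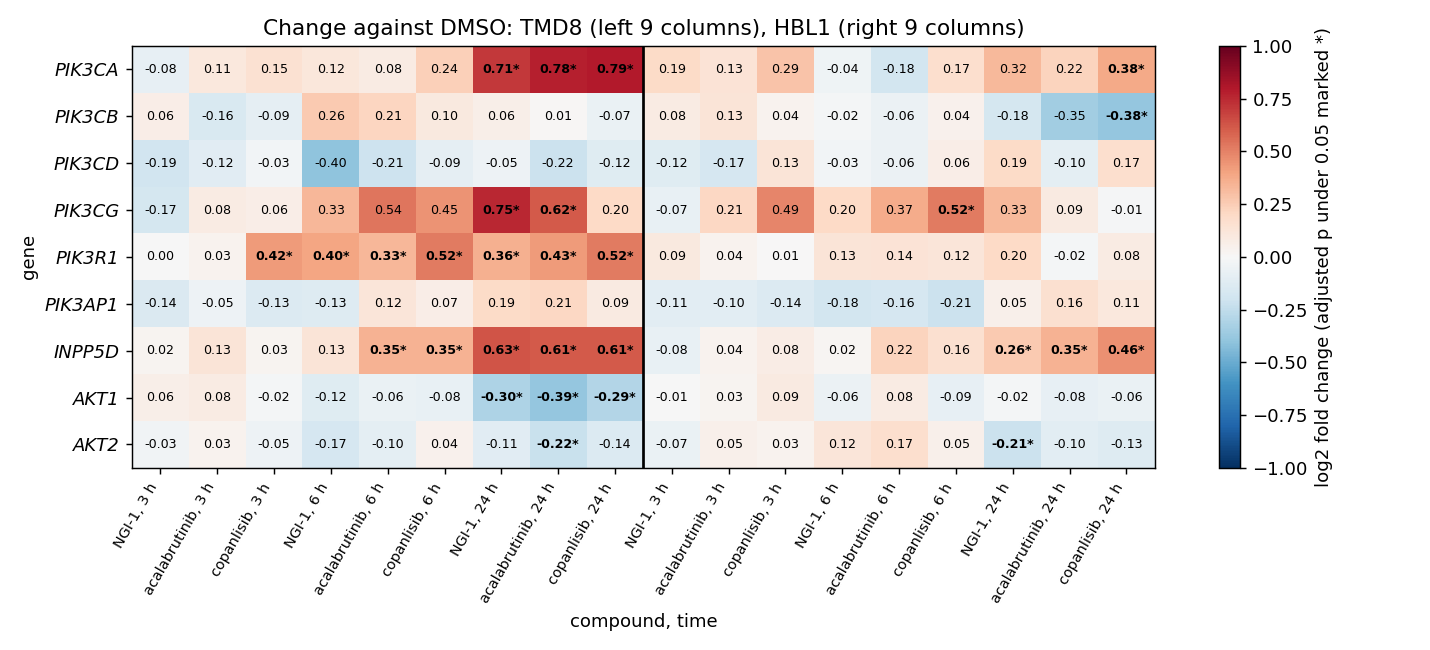
Log2 fold change of each gene (rows) for each compound against DMSO at each time (columns), TMD8 on the left and HBL1 on the right, n = 2 libraries a group; values marked * had an adjusted p under 0.05. The TMD8 24 h columns hold the most marked values, with PIK3CA between 0.71 and 0.79 and INPP5D between 0.61 and 0.63.

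Among the catalytic subunits, PIK3CA, the alpha form that is widely expressed, rose in TMD8 with every compound at 24 h. The DMSO libraries held 20.7 and 18.3 CPM. With NGI-1 they held 36.0 and 27.6 CPM, with acalabrutinib 33.9 and 32.8 CPM, and with copanlisib 37.6 and 29.4 CPM. Every treated library lay above both DMSO libraries. The log2 fold changes were 0.71 ± 0.16 (SE, edgeR adjusted p = 0.00073), 0.78 ± 0.16 (edgeR adjusted p = 2e-04) and 0.79 ± 0.16 (edgeR adjusted p = 0.00017). Without NGI-1 replicate 1 the NGI-1 call was lost (edgeR adjusted p = 0.066), while the other 2 calls held without each library in turn. At 3 h and 6 h the PIK3CA changes in TMD8 ran from -0.08 to 0.24 and none was called.

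In HBL1 PIK3CA rose with copanlisib at 24 h, from 62.2 and 55.5 to 81.8 and 71.4 CPM (log2 fold change 0.38 ± 0.14, edgeR adjusted p = 0.029). This call of PIK3CA was lost without DMSO replicate 1 (edgeR adjusted p = 0.052), DMSO replicate 2 (0.2) or copanlisib replicate 1 (0.26). The changes with NGI-1 and acalabrutinib were 0.32 and 0.22 and were not called. With NGI-1 the libraries held 79.5 and 67.9 CPM, above both DMSO libraries (edgeR adjusted p = 0.089). That change was called with no filter (0.026). PIK3CA shares 3403 exonic bases with KCNMB3 on the opposite strand in GENCODE 29, and whether the counting used strand is not given in the sources used here. KCNMB3 held 16 to 71 reads a library, against 160 to 897 for PIK3CA. PIK3CA also has a pseudogene copy, and how reads common to both were counted is not given, so its level carries that uncertainty.

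PIK3CG, the gamma form of blood cells that also responds to G protein-coupled receptors, was a low transcript that rose in TMD8 at 24 h with NGI-1 and acalabrutinib. The DMSO libraries held 28.2 and 22.6 CPM, the NGI-1 libraries 46.2 and 39.2 CPM, the acalabrutinib libraries 43.3 and 34.3 CPM and the copanlisib libraries 32.9 and 25.1 CPM. The copanlisib libraries overlapped the DMSO range and the others did not. Its log2 fold changes were 0.75 ± 0.17 with NGI-1 (edgeR adjusted p = 7e-04), 0.62 ± 0.17 with acalabrutinib (0.0051) and 0.20 with copanlisib, which was not called. The acalabrutinib call was lost without DMSO replicate 2 (edgeR adjusted p = 0.12) or acalabrutinib replicate 1 (0.12).

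At 6 h in TMD8 the 2 DMSO libraries of PIK3CG stood apart, at 11.4 and 18.7 CPM, and the treated libraries held 17.1 to 22.3 CPM. The log2 fold changes were 0.54 with acalabrutinib and 0.45 with copanlisib, neither called (edgeR adjusted p = 0.13 for each). Without DMSO replicate 2 they were called, at adjusted p = 0.02 and 0.018. With copanlisib at 3 h in HBL1 PIK3CG held 40.3 and 39.4 CPM, against 29.4 and 27.3 CPM in DMSO. That log2 fold change of 0.49 was not called (edgeR adjusted p = 0.15), but it was with no filter (0.02). In HBL1 PIK3CG rose with copanlisib at 6 h, from 34.6 and 28.6 to 51.5 and 39.0 CPM (log2 fold change 0.52 ± 0.17, edgeR adjusted p = 0.042). That call was lost without DMSO replicate 1 (0.062), DMSO replicate 2 (0.27) or copanlisib replicate 1 (0.46), and when each line was fitted separately (0.057).

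PIK3CD, the delta form, was the most abundant catalytic subunit. In the main fit it was called in none of the 18 comparisons with DMSO. A fit with the replicate number within each line and time did call PIK3CD. In TMD8 it did so with NGI-1 at 3 h (edgeR adjusted p = 0.044) and 6 h (6.4e-08). With acalabrutinib it did so there at 6 h (0.0053) and 24 h (0.00074). In HBL1 at 24 h it did so with NGI-1 (0.0065) and copanlisib (0.015). The largest change of PIK3CD was with NGI-1 at 6 h in TMD8. There the DMSO libraries held 407 and 374 CPM and the NGI-1 libraries 303 and 288 CPM. The groups did not overlap, and the log2 fold change was -0.40 with an edgeR adjusted p of 0.1. PIK3CD was called there when each line was fitted separately (adjusted p = 0.00034) and with no filter on low counts (8e-04). With acalabrutinib at 24 h in TMD8 the change of PIK3CD was -0.22 (edgeR adjusted p = 0.25), with 335 and 304 CPM against 372 and 371 CPM in DMSO, and it was called in the separate fit of each line (0.021). PIK3CD shares 89 exonic bases with CLSTN1 on the opposite strand. The spread between the HBL1 libraries at 3 h enters the joint estimate of error for this gene.

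PIK3CB, the beta form, was called in 1 comparison, copanlisib at 24 h in HBL1. It held 54.1 and 48.8 CPM in DMSO and 44.3 and 34.4 CPM with copanlisib, a log2 fold change of -0.38 ± 0.13 (edgeR adjusted p = 0.024). The acalabrutinib libraries, at 38.9 and 42.1 CPM, gave a change of -0.35 that was not called (edgeR adjusted p = 0.061). The copanlisib call of PIK3CB was lost with DESeq2 (0.059), without DMSO replicate 1 (0.21) and without copanlisib replicate 2 (0.37). In TMD8 at 24 h its changes were between -0.07 and 0.06. The copanlisib value there (-0.07) averages libraries that stood apart, at 41.1 and 26.2 CPM. Without copanlisib replicate 1 that PIK3CB change was -0.45 and was called (edgeR adjusted p = 0.028), and without copanlisib replicate 2 it was 0.21 and was not called (0.32).

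PIK3R1, the p85 alpha regulatory subunit, was the only gene of the 9 that edgeR called against DMSO at 3 h. That was with copanlisib in TMD8. The DMSO libraries held 120 and 132 CPM and the copanlisib libraries 172 and 166 CPM, a log2 fold change of 0.42 ± 0.10 (edgeR adjusted p = 0.0081). NGI-1 at 128 and 123 CPM and acalabrutinib at 133 and 124 CPM lay near DMSO at that time, with changes of 0.00 and 0.03. The copanlisib call was lost without DMSO replicate 1 (edgeR adjusted p = 0.23) or copanlisib replicate 1 (0.13).

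By 6 h all 3 compounds had raised PIK3R1 in TMD8, from 111 and 116 CPM in DMSO to 148 and 151 CPM with NGI-1, 150 and 136 CPM with acalabrutinib and 164 and 162 CPM with copanlisib. PIK3R1 thus had log2 fold changes of 0.40 ± 0.10 (edgeR adjusted p = 0.0092), 0.33 ± 0.10 (0.038) and 0.52 ± 0.10 (0.00013). At 24 h they were 0.36 ± 0.10 (edgeR adjusted p = 0.0038), 0.43 ± 0.10 (0.00059) and 0.52 ± 0.10 (4.9e-05), with no treated library at or below the DMSO values of 116 and 108 CPM. The copanlisib calls at 6 h and 24 h and the acalabrutinib call at 24 h held without each library in turn. The NGI-1 call of PIK3R1 at 6 h was lost without any of 3 libraries, namely DMSO replicate 1 (0.18) and the NGI-1 replicates 1 (0.066) and 2 (0.11). Its NGI-1 call at 24 h was lost without NGI-1 replicate 1 (0.073) or DMSO replicate 2 (0.068). The acalabrutinib call at 6 h was lost without DMSO replicate 1 (0.33) or 2 (0.099) and without acalabrutinib replicate 1 (0.35) or 2 (0.076). In HBL1, where PIK3R1 was lower, it held 34.4 to 53.2 CPM in all groups and was called in none of the 9 comparisons, with changes from -0.02 to 0.20.

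The adaptor PIK3AP1 was not called in any comparison with a compound in the main fit. Against DMSO it was called with the replicate number in the fit, over all libraries and within each line and time. In TMD8 at 24 h this held for NGI-1 (edgeR adjusted p = 0.039 and 0.0013) and acalabrutinib (0.025 and 0.00051). In HBL1 at 6 h it held for copanlisib (0.046 and 0.00075). The TMD8 values of PIK3AP1 at 24 h were 313 and 270 CPM in DMSO and 349 and 317 CPM with NGI-1. They were 360 and 313 CPM with acalabrutinib and 338 and 281 CPM with copanlisib. The log2 fold changes were 0.19, 0.21 and 0.09. In HBL1 at 6 h the DMSO libraries held 477 and 407 CPM and the treated libraries 358 to 405 CPM, with changes from -0.21 to -0.16.

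INPP5D, which encodes SHIP1, had the most calls of the 9 genes against DMSO, in 5 of 9 comparisons in TMD8 and 3 of 9 in HBL1, and every call was a rise. In TMD8 at 24 h the DMSO libraries held 191 and 196 CPM. The NGI-1 libraries held 304 and 296 CPM, the acalabrutinib libraries 315 and 276 CPM and the copanlisib libraries 310 and 282 CPM. The treated libraries all lay above the DMSO range, with log2 fold changes of 0.63 ± 0.07 (edgeR adjusted p = 1.7e-08), 0.61 ± 0.07 (3e-08) and 0.61 ± 0.07 (3.1e-08), or 1.53- to 1.55-fold. These 3 calls held without each library in turn. At 6 h in TMD8 INPP5D had risen with acalabrutinib (218 and 220 CPM) and with copanlisib (217 and 222 CPM) from 165 and 179 CPM in DMSO, a log2 fold change of 0.35 for each. With NGI-1 it held 192 and 185 CPM at that time, a change of 0.13 that was not called. Without DMSO replicate 1 the 6 h calls were lost, at edgeR adjusted p = 0.14 for acalabrutinib and 0.053 for copanlisib.

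In HBL1, where INPP5D was already the most abundant of the group per kilobase, it rose at 24 h from 584 and 545 CPM in DMSO to 699 and 655 CPM with NGI-1, 765 and 670 CPM with acalabrutinib and 812 and 741 CPM with copanlisib. INPP5D thus had log2 fold changes of 0.26 ± 0.07 (edgeR adjusted p = 0.008), 0.35 ± 0.07 (6e-04) and 0.46 ± 0.07 (4.7e-06). The copanlisib call held without each library in turn. The NGI-1 call was lost without NGI-1 replicate 1 (0.064) or DMSO replicate 2 (0.13), and the acalabrutinib call without acalabrutinib replicate 1 (0.059). In the DMSO libraries of HBL1 INPP5D had itself fallen between 3 h and 24 h, from 710 and 679 CPM, so the treated libraries at 24 h lay near or above the level of untreated cells at 3 h.

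AKT1, the broadly expressed AKT kinase, fell in TMD8 at 24 h with every compound. It held 130 and 131 CPM in DMSO, 104 and 107 CPM with NGI-1, 104 and 94.3 CPM with acalabrutinib and 111 and 101 CPM with copanlisib. No treated library reached the DMSO values. AKT1 had log2 fold changes of -0.30 ± 0.08 (edgeR adjusted p = 0.0023), -0.39 ± 0.08 (0.00014) and -0.29 ± 0.08 (0.0033). The copanlisib call was lost without copanlisib replicate 2 (0.089). AKT1 in the treated cells at 24 h stayed above most libraries of the earlier times, which held 72.6 to 102 CPM in TMD8. In HBL1 AKT1 changed by -0.08 to -0.02 at 24 h and was not called. AKT1 overlaps an annotated antisense transcript over 663 exonic bases, and reads from the 2 strands cannot be told apart without the strand setting.

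AKT2, the AKT form known for insulin signalling, moved little. In TMD8 at 24 h it fell with acalabrutinib from 251 and 256 to 222 and 214 CPM (log2 fold change -0.22 ± 0.08, edgeR adjusted p = 0.023). In HBL1 it fell with NGI-1 from 172 and 171 to 149 and 146 CPM (-0.21 ± 0.08, edgeR adjusted p = 0.046). The AKT2 call in HBL1 was lost without any 1 of the 4 libraries (edgeR adjusted p = 0.096 to 0.21), with RLE size factors (0.071), with no filter (0.21), with a stricter filter (0.059) and with DESeq2 (0.055). The AKT2 call in TMD8 was lost with no filter (0.052), without DMSO replicate 1 (0.066) or 2 (0.11) and without acalabrutinib replicate 2 (0.15).

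**Figure D3:**
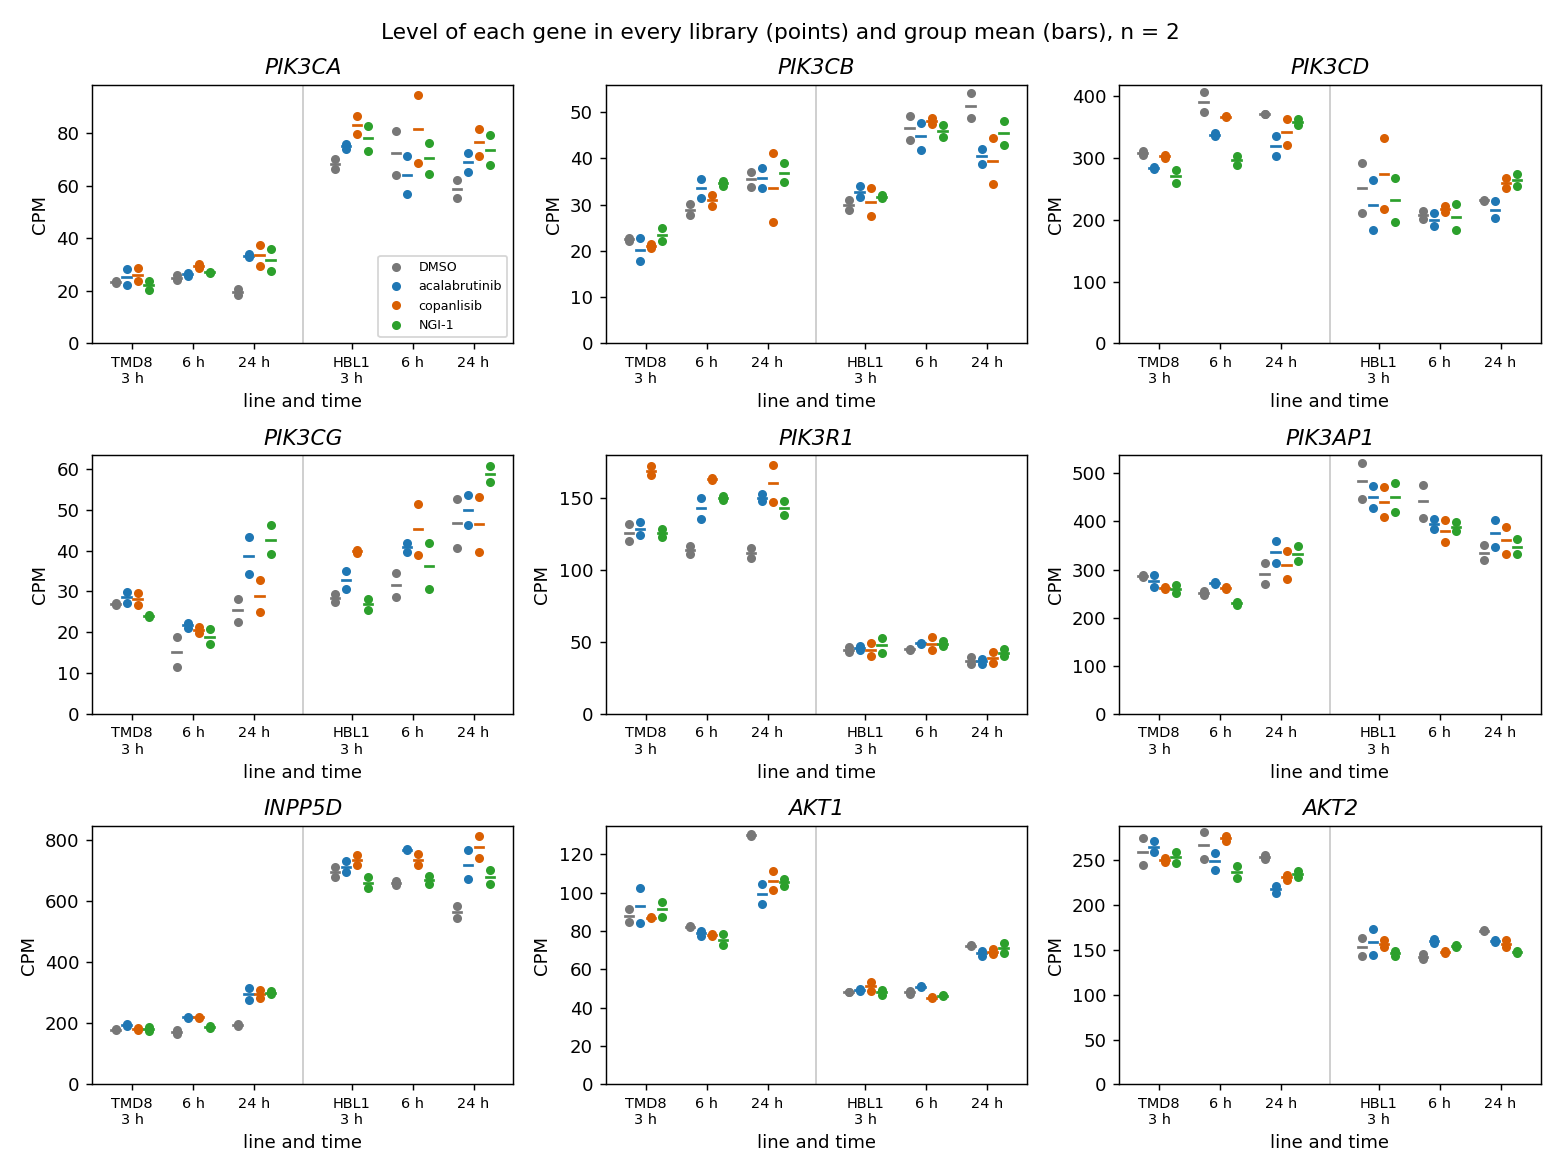
CPM of each gene in every library (points, n = 2 a group) with the group mean (bar), by line and time on the x axis and by compound in colour, all y axes starting at 0. In TMD8 at 24 h the treated points of PIK3CA and INPP5D lie above DMSO (20.7 and 18.3 CPM, and 191 and 196 CPM), those of AKT1 lie below it, and PIK3R1 with copanlisib lies above DMSO from 3 h on.

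The compounds were then compared with each other at the same line and time, in 18 comparisons and 162 tests of these genes. The PI3K inhibitor and the glycosylation inhibitor differed for PIK3R1 in TMD8 at 3 h, where NGI-1 gave 128 and 123 CPM and copanlisib 172 and 166 CPM. The log2 difference (NGI-1 minus copanlisib) was -0.43 ± 0.10 (edgeR adjusted p = 0.0061, background 2.25%). This call of PIK3R1 was lost without copanlisib replicate 1 (0.1) or either NGI-1 library, replicate 1 (0.055) and replicate 2 (0.11). Copanlisib minus acalabrutinib for PIK3R1 at 3 h was 0.39 and was not called with edgeR (0.061) but was with DESeq2 (0.021).

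No other direct difference was called with edgeR. In the other 17 comparisons, 17 of 153 tests reached p under 0.05 before adjustment, and DESeq2 called 3. Beside PIK3R1 above, these were differences of NGI-1 minus copanlisib in HBL1. PIK3CG at 3 h was -0.56 (edgeR adjusted p = 0.056, DESeq2 0.048, edgeR with no filter 0.0019). INPP5D at 24 h was -0.20 (edgeR adjusted p = 0.12, DESeq2 0.027). At 3, 6 and 24 h the background of NGI-1 against acalabrutinib was 1, 3.39 and 1.31% in TMD8 and 0.893, 3.54 and 3.18% in HBL1. That of NGI-1 against copanlisib was 5.89 and 1.43% in TMD8 at 6 and 24 h and 3.1, 6.8 and 5% in HBL1 at the 3 times. Copanlisib against acalabrutinib had 0.274, 0.281 and 0.497% in TMD8 and 0.0216, 0.0937 and 0.101% in HBL1. For INPP5D in TMD8 at 24 h the log2 differences were 0.02 between NGI-1 and acalabrutinib (95% interval -0.13 to 0.17) and 0.02 between NGI-1 and copanlisib (-0.13 to 0.17). For PIK3CA the corresponding intervals were -0.38 to 0.24 and -0.39 to 0.23. For PIK3CG in TMD8 at 24 h, NGI-1 minus copanlisib was 0.55 (95% interval 0.21 to 0.90). Its edgeR adjusted p was 0.12, which was 0.0053 with no filter on low counts.

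Whether the lines responded differently was tested as the difference of the compound effect, TMD8 minus HBL1. At 24 h mean INPP5D rose with NGI-1 from 193.4 to 299.7 CPM in TMD8 and from 564.5 to 676.9 CPM in HBL1. The difference of these log2 changes was called, at 0.37 ± 0.10 (edgeR adjusted p = 0.045, background 2.51%). The rise relative to DMSO, though not in CPM, was thus larger in TMD8. That call was lost with RLE size factors (0.063), with no filter (0.17), with a stricter filter (0.05) and in 7 of the 8 fits that left out a library (0.082 to 0.23). In the other 8 comparisons edgeR and DESeq2 called 0 of 72 tests, and 10 reached p under 0.05 before adjustment. Few genes at all were called in these, at 0.0072 and 0.0216% for NGI-1 at 3 and 6 h, 0, 0.166 and 4.25% for acalabrutinib at 3, 6 and 24 h, and 0.0576, 0.584 and 4.18% for copanlisib. The nearest to a call were for PIK3R1 at 24 h, 0.44 with acalabrutinib (95% interval 0.14 to 0.75, edgeR adjusted p = 0.09) and 0.44 with copanlisib (0.14 to 0.74, 0.092). The copanlisib difference of PIK3R1 was called without HBL1 copanlisib replicate 1 (0.049) or TMD8 copanlisib replicate 2 (0.04). For PIK3CA the 24 h differences were 0.38, 0.55 and 0.41 and for AKT1 -0.28, -0.31 and -0.23 for NGI-1, acalabrutinib and copanlisib. None of these was called, though that of AKT1 with acalabrutinib was with a stricter filter (edgeR adjusted p = 0.039). In this fit the calls of PIK3CA, PIK3R1 and AKT1 in TMD8 at 24 h are thus not shown to be larger than the changes in HBL1. Some line differences of PIK3CA and PIK3R1 were called when the replicate number entered the fit, as given in the last section.

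**Figure D4:**
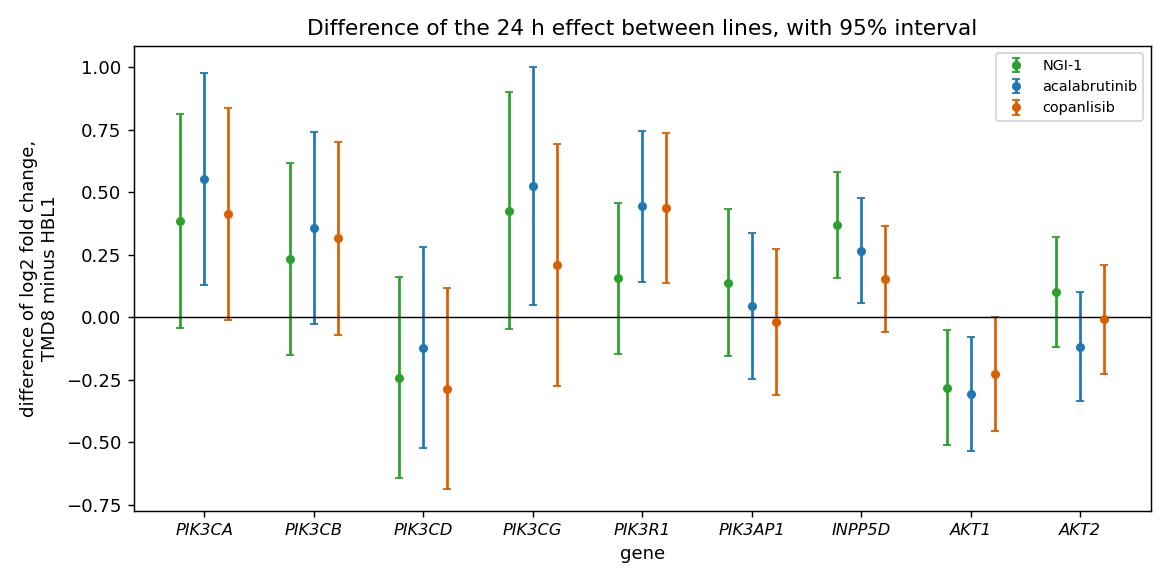
Difference of the 24 h log2 fold change between the lines (TMD8 minus HBL1) for each gene and compound, with its 95% interval. INPP5D with NGI-1 (0.37) was the difference called; the intervals of PIK3R1 with acalabrutinib and copanlisib lie above 0 before adjustment over all genes.

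The growth of the effects with time was tested as the effect at 24 h minus that at 3 h. In TMD8 this was called for 4 of the 9 genes with NGI-1 (background 12.2%), 4 with acalabrutinib (14.6%) and 1 with copanlisib (10.9%). In HBL1 it was called for 1 gene with NGI-1 (4.9%) and 1 with copanlisib (9.39%). With acalabrutinib in HBL1 (3.91%) edgeR called none, 2 genes reached p under 0.05 before adjustment, and DESeq2 called 1. INPP5D made up the HBL1 calls and was called with all 3 compounds in TMD8. For PIK3CA with copanlisib in TMD8 the difference was 0.64 and was not called (edgeR adjusted p = 0.065). It was called with no filter (0.016) and with each line fitted separately (0.032). Comparisons of one line share the DMSO libraries of both times.

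The wider pathway was followed in 10 lists of 75 genes, of which 70 were tested (PIK3R6, PIK3C2G, PRR5, INSR and ERBB3 had too few reads). Over the 70 genes at 24 h in TMD8, 18 were called higher and 3 lower with NGI-1, 23 and 3 with acalabrutinib and 22 and 4 with copanlisib. In HBL1 the counts were 11 and 3, 11 and 6, and 20 and 7. The shares called were 30, 37.1 and 37.1% in TMD8 and 20, 24.3 and 38.6% in HBL1, beside backgrounds of 30.7, 31 and 31.8% and of 19.4, 19 and 30.5%. Over all genes tested, 2185 were called higher and 2070 lower with NGI-1 in TMD8, and 1757 and 2470 with copanlisib in HBL1. For NGI-1, acalabrutinib and copanlisib the shares called higher were 15.7, 15.5 and 15.8% in TMD8 and 7.95, 7.62 and 12.7% in HBL1. Those called lower were 14.9, 15.5 and 16% in TMD8 and 11.4, 11.4 and 17.8% in HBL1. The counts of the lists below are to be read against these shares, and some lie near them. The medians of the 70 log2 fold changes were between 0.02 and 0.11, and those of all genes between -0.02 and 0.01.

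Other subunits moved in both directions. PIK3R2, which encodes p85 beta, fell in TMD8 at 24 h with all 3 compounds, from 73.1 and 71.3 to 54.4 and 49.3 CPM with acalabrutinib (log2 fold change -0.48 ± 0.10, edgeR adjusted p = 0.00039). PIK3R3, the p55 gamma subunit, rose in HBL1 with NGI-1 at 24 h from 64.2 and 55.4 to 101.4 and 90.7 CPM (0.68 ± 0.13, edgeR adjusted p = 9.7e-05). PIK3C3, the class III kinase of autophagy and endosomes, rose in TMD8 with acalabrutinib by 0.55 ± 0.11, while its partner PIK3R4 fell by 0.33 in HBL1 with copanlisib. That PIK3R4 call was lost without DMSO replicate 1 (edgeR adjusted p = 0.12) or copanlisib replicate 2 (0.072).

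Among the 11 phosphoinositide phosphatases, 2 rose and none fell with NGI-1 in TMD8 at 24 h, 4 and 0 with acalabrutinib, and 2 and 1 with copanlisib. In HBL1 1, 2 and 2 rose and none fell. Over all genes tested 15.5 to 15.8% were called higher in TMD8 and 7.62 to 12.7% in HBL1. INPP5K rose in TMD8 with copanlisib from 25.6 and 25.7 to 44.0 and 35.2 CPM (log2 fold change 0.63 ± 0.11, edgeR adjusted p = 3.5e-05). INPP5F, a phosphatase of inositol lipids, rose in HBL1 with copanlisib by 0.82 ± 0.15. INPPL1, which encodes SHIP2, the close relative of SHIP1, rose there by 0.37 ± 0.08.

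Of the 11 genes of the inhibitor and adaptor list, 3, 3 and 5 rose with NGI-1, acalabrutinib and copanlisib in TMD8 at 24 h and none fell. In HBL1 2, 3 and 6 rose and 0, 1 and 0 fell. The shares of all genes called higher were 15.5 to 15.8% in TMD8 and 7.62 to 12.7% in HBL1. PIK3IP1, a membrane protein that inhibits PI3K, rose in HBL1 with copanlisib at 24 h from 9.86 and 10.2 to 40.8 and 34.4 CPM, a log2 fold change of 1.91 ± 0.22 (edgeR adjusted p = 1.1e-08) or 3.75-fold. It also rose in HBL1 with acalabrutinib (1.82) and NGI-1 (1.10) and in TMD8 with copanlisib (1.21, edgeR adjusted p = 0.019). The changes of PIK3IP1 in TMD8 were 1.02 with acalabrutinib (0.056) and 0.62 with NGI-1 (0.32) and were not called. CBLB, a ubiquitin ligase that restrains receptor signalling, rose in 11 of 18 comparisons, with 27.7 and 27.4 CPM in DMSO and 70.4 and 51.1 CPM with acalabrutinib in TMD8 at 24 h (1.14 ± 0.14, edgeR adjusted p = 3.3e-08). BLNK, the adaptor that links SYK to BTK and PLCG2, rose in TMD8 with NGI-1 at 24 h by 0.55 ± 0.08. Over the 18 comparisons BLNK was called higher in 5 and lower in 2.

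Of the 8 kinases and effectors of the B cell receptor, 4 rose and none fell in TMD8 with NGI-1, 4 and 1 with acalabrutinib, and 4 and 0 with copanlisib at 24 h. In HBL1 the counts were 5 and 0, 2 and 1, and 5 and 0. Of all genes tested, 15.5 to 15.8% were called higher in TMD8 and 7.62 to 12.7% in HBL1. SYK, a kinase of the receptor signal, rose in TMD8 with copanlisib from 651.5 and 602 to 988.6 and 872 CPM (log2 fold change 0.57 ± 0.09, edgeR adjusted p = 2.8e-06). PLCG2, the phospholipase downstream of BTK, rose in HBL1 with copanlisib by 0.51 ± 0.07.

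Downstream of AKT, FOXO genes rose in TMD8 at 24 h. FOXO3 held 7.10 and 7.25 CPM in DMSO and 16.0 and 13.6 CPM with acalabrutinib in TMD8 at 24 h (log2 fold change 1.04 ± 0.18, edgeR adjusted p = 2.2e-05). FOXO4 rose there with copanlisib by 1.05 ± 0.19 and FOXO1 with acalabrutinib by 0.75 ± 0.14. In TMD8 at 24 h FOXO1 and FOXO3 were called with all 3 compounds and FOXO4 with 2, its NGI-1 change of 0.23 not being called (edgeR adjusted p = 0.43). Among all 8 AKT substrates, 3, 4 and 4 rose with NGI-1, acalabrutinib and copanlisib in TMD8 and none fell. In HBL1 2, 1 and 4 rose and 1 fell with each. Beside these, 15.5 to 15.8% of all genes tested were called higher in TMD8 and 7.62 to 12.7% in HBL1.

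In the mTORC1 branch, EIF4EBP1, a repressor of translation, fell in TMD8 with copanlisib from 30.1 and 31.2 to 16.5 and 14.7 CPM (log2 fold change -0.97 ± 0.20, edgeR adjusted p = 0.00017). It fell there also with acalabrutinib (-0.97) and NGI-1 (-0.81), while in HBL1 its changes of -0.13 to -0.25 were not called. TSC1 and TSC2, whose products restrain mTORC1, rose in TMD8 with copanlisib by 0.64 ± 0.10 and 0.54 ± 0.11. Of the 11 genes of the branch, 3 rose and 2 fell with NGI-1 in TMD8, 4 and 1 with acalabrutinib, and 4 and 2 with copanlisib. In HBL1 0, 1 and 0 rose and 0, 0 and 1 fell. All genes tested were called higher at 15.5 to 15.8% in TMD8 and 7.62 to 12.7% in HBL1. They were called lower at 14.9 to 16% and 11.4 to 17.8%.

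The 6 tested AKT activators and mTORC2 genes held 1 call with each compound in TMD8 at 24 h, a rise, and 0, 1 and 2 calls in HBL1, all lower. The 6 AKT phosphatases held 1 rise with each compound in TMD8 and 0, 1 and 1 rises beside 2, 1 and 2 falls in HBL1. For both lists the share of all genes called higher in TMD8 was 15.5 to 15.8%. In HBL1 7.62 to 12.7% of all genes were called higher and 11.4 to 17.8% lower. RICTOR, the defining subunit of mTORC2, rose in TMD8 with acalabrutinib by 0.61 ± 0.12 (edgeR adjusted p = 8.8e-05), and PPP2R5C, a regulatory subunit of protein phosphatase 2A, rose there by 0.44 ± 0.09. In HBL1 with copanlisib MTOR fell by 0.33, MAPKAP1 by 0.30 and PPP2CA by 0.31. The MTOR call was lost without DMSO replicate 1 (edgeR adjusted p = 0.11), that of MAPKAP1 without copanlisib replicate 2 (0.076) and that of PPP2CA without DMSO replicate 1 (0.12) or copanlisib replicate 2 (0.079). PPP2R1A fell in HBL1 with NGI-1 by 0.26 and lost its call without DMSO replicate 1 (0.15) or either NGI-1 library, replicate 1 (0.063) and replicate 2 (0.1). ERBB2, a growth factor receptor, rose in HBL1 with copanlisib by 0.59 and lost its call without copanlisib replicate 1 (0.21) or DMSO replicate 2 (0.15).

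The genes whose group means ran most like each of the 9 were named over the 24 groups after the mean of each line was subtracted, among 11020 genes. These correlations share libraries, depth and the DMSO drift with time, and are given as a description. INPP5D was most like NUB1 (r = 0.952), LIMK1 (0.926) and ISCU (0.924). AKT1 was most like COPS6 (0.96), TARBP1 (0.959) and HNRNPA3 (0.954). For PIK3CA they were GCC2 (0.903), LYST (0.901) and KIAA1370 (0.884), and for PIK3CB WDR7 (0.916), EHBP1 (0.912) and RPE (0.89). PIK3CD was most like PAX5 (0.807), DOCK10 (0.735) and IKZF1 (0.717), and PIK3CG like LIME1 (0.891), FGD4 (0.885) and GLCCI1 (0.877). PIK3R1 was most like PHC3 (0.83), ZNF740 (0.825) and MTMR1 (0.82), PIK3AP1 like TIMP2 (0.897), MGLL (0.892) and BLNK (0.853), and AKT2 like GTF3C5 (0.857), HMGA1 (0.823) and MLLT1 (0.818). Within the group, the closest pair was PIK3CA and INPP5D (r = 0.74), and PIK3CD followed none of the other 8 above 0.327.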

How the data were processed

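RNA-seq read counts per gene, deposited by the authors and used without change, were analysed for 48 libraries. HTSeq and the build hg19 are named for the counting, per the submitters' processing notes. The aligner, versions, annotation and strand setting are not given in the sources used here. Per the labels' protocols, RNA was prepared with a Qiagen AllPrep kit and standard Illumina libraries. The 9 genes, the lists and the alternatives were chosen with earlier results of these data known.

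The filter filterByExpr, applied by group, left 13881 genes, and TMM set the scaling (edgeR 4.0.16 under R 4.3.3). All 24 group means entered a single model with 24 residual degrees of freedom. Its 56 comparisons used the quasi-likelihood F test of edgeR. Adjusted p-values are Benjamini-Hochberg values over all genes tested in a comparison, and genes were called under 0.05. The SE is the log2 change divided by the root of F. Libraries of a group varied by 7.34% (common dispersion 0.00539). Between replicates the chi-square per gene was 2.62 to 9.04, so none was a repeated library. Genes without an Entrez ID held 0.81% of the reads and were kept. The 27 symbols turned into dates were renamed, and older symbols were matched by Entrez ID. The step was tested on simulated data.

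All 9 genes are named. Of the 10 pathway lists, up to 3 genes a list were named, those with the smallest adjusted p against DMSO among genes called, each first at the comparison where that p was smallest. A gene that this rule names is not reported here. For each of the 9, the 3 genes of highest Pearson r were named, leaving out genes whose log2 CPM averaged under 1. Marker lists gave these sums beside those in the report: myeloid genes 0.569 to 2.53 CPM in TMD8 and 0.737 to 3.57 CPM in HBL1, stromal and epithelial genes 2.81 to 10.8 and 20.8 to 44.5 CPM, and the activated B cell type up to 4090 and 4980 CPM. No gene coordinates of hg19 and no protein sequences were used here.

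Alternatives were fits with DESeq2 1.42.0, with RLE size factors and with no filter or a stricter one. The stricter filter asked for 2 libraries at a CPM of 1 or more and an average log2 CPM of at least 1. Other fits had the lines fitted apart, a replicate block, or each library left out in turn. The longest transcript as gene length was chosen after seeing the data.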

Additional observations from a re-analysis of the deposited data

Results flagged for a closer look

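The results below differ between lines or times by a direct test in edgeR, each as a log2 difference of the effect against DMSO. No explanation was weighed for them.

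The log2 rise of INPP5D with NGI-1 at 24 h was larger in TMD8 than in HBL1 by 0.37 (adjusted p = 0.045). The settings that lost this call are given with the line differences above.

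In TMD8, the effect at 24 h exceeded that at 3 h with NGI-1 for PIK3CA by 0.79 (adjusted p = 0.021), for PIK3CG by 0.93 (0.011) and for INPP5D by 0.61 (0.00012), and that of AKT1 was lower, at -0.36 (0.029). With acalabrutinib the differences were 0.67 for PIK3CA (0.044), 0.39 for PIK3R1 (0.046), 0.48 for INPP5D (0.0014) and -0.47 for AKT1 (0.0028). With copanlisib it was 0.58 for INPP5D (0.00021).

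In HBL1, the 24 h effect on INPP5D exceeded the 3 h effect by 0.34 with NGI-1 (adjusted p = 0.046) and by 0.38 with copanlisib (0.013).

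Leaving out each of the 8 libraries in turn kept the INPP5D calls with all 3 compounds in TMD8, the 3 of these 11 time differences that held throughout. The AKT1 difference with acalabrutinib was lost without acalabrutinib 3 h replicate 2 (adjusted p = 0.079). The others were lost in 3 to 8 of their 8 refits. With acalabrutinib, the calls of PIK3CA (adjusted p = 0.05) and PIK3R1 (0.05) were also lost with RLE size factors, and that of PIK3R1 with no filter (0.077). The AKT1 call with NGI-1 was lost with no filter (0.099), and the INPP5D call with NGI-1 in HBL1 with no filter (0.078) and with each line fitted separately (0.07).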

How the results depend on the processing

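Of the 28 calls against DMSO, 24 held under every setting other than leaving out a library, and 12 without each library in turn. Of 24 calls between lines in DMSO, 24 and 23 did so, and of the 7 between 24 h and 3 h in DMSO all 7 did. Of the 11 calls on the effect at 24 h minus 3 h, 7 and 3 did. No called difference changed direction, while small differences that were not called could change sign without a library. Call counts without each library in turn were 6 to 8 for NGI-1 against DMSO, 7 to 9 for acalabrutinib, 9 to 12 for copanlisib, 0 to 2 for the line difference, 6 to 12 for 24 h minus 3 h, 0 to 1 between compounds, 23 to 25 between lines and 7 to 8 for DMSO over time. Comparisons without the library keep their value in these counts, and the lone library of a group is assumed to vary like the others.

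The line difference fell from 1 call to 0 with RLE size factors and 0 with no filter. Between compounds, 1 call became 5 with no filter, 2 with a stricter filter, 4 with DESeq2 and 3 with each line fitted separately. RLE scaling moved the median of all genes by at most 0.0218. Of 216 group levels, 12 moved by over 1 SD with RLE and 54 with plain library totals (at most 5.1%).

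Replicate numbers are shared across groups. In the check of the pairing, same-numbered deviations correlated at 0.09 to 0.355 over 18 comparisons of 2 pairs each. The labels do not say whether a number marks a shared culture or day, so the main fit left the numbers out. Whether the numbers mark a batch was not tested. The number of calls depended on this choice, as the fits with a block below show. Of the 48 libraries, 22 lay closest to the other of their group and 26 to one of the same number in another group. A replicate block over all libraries gave 4 calls for the line difference and 7 between compounds. At 24 h the line differences called with this block included PIK3CA with acalabrutinib (adjusted p = 0.031) and PIK3R1 with acalabrutinib (0.025) and copanlisib (0.027). A block within each line and time gave 16 calls for NGI-1 (against 8), 20 for acalabrutinib (9), 18 for copanlisib (11), 17 for the line difference (1), 27 for 24 h minus 3 h (11) and 24 between compounds (1).

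Counts of all genes called against DMSO moved by over 1.5 times in 4 of 18 comparisons with no filter, 2 with separate fits, 5 with the block over all libraries and 14 with the block within line and time. With no filter NGI-1 at 3 h went from 107 to 161 in TMD8 and 49 to 101 in HBL1, NGI-1 at 6 h in HBL1 from 157 to 249, and acalabrutinib at 3 h in HBL1 from 34 to 88. Separate fits gave 20 and 18 for NGI-1 and acalabrutinib at 3 h in HBL1. A sequence comparison of the proteins was not run.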
